A study of Mus musculus with 25 samples.

Results

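The facilitative glucose transporters examined here were Slc2a1, Slc2a2, Slc2a3, Slc2a4, Slc2a5, Slc2a6, Slc2a8 and Slc2a9, the 8 of the 13832 distinct genes on the array that were listed by symbol. The platform annotation gave each gene 1 probe, so 8 of the 32996 probes are described, chosen by name. Lean congenic B6.C-D7Mit353 mice, homozygous for the congenic interval, were compared with the C57BL/6J (B6) background strain in 4 tissues: brain, liver, gonadal white adipose tissue (gonadal fat) and gastrocnemius, a calf muscle. Each of the 8 tissue and strain groups had 3 arrays, 24 in all, each labelled as a biological replicate. No treatment is named in the labels, and the labels give no age, sex or diet. The interval is named for a marker of chromosome 7, and the RefSeq annotation places the 8 genes on chromosomes 2, 3, 4, 5, 6 and 11, so none of them lies on the chromosome of that marker.

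Facilitative transporters of this family are membrane proteins that let a sugar pass down its concentration gradient, with no coupling to sodium or to ATP. In mammals Slc2a1 (GLUT1) carries glucose across the blood-brain barrier, Slc2a3 (GLUT3) serves neurons, Slc2a2 (GLUT2) moves glucose in both directions across the hepatocyte membrane, and Slc2a4 (GLUT4) is the carrier that insulin and contraction bring to the surface of muscle fibres and adipocytes. Slc2a5 (GLUT5) prefers fructose, Slc2a9 (GLUT9) carries urate, and Slc2a6 (GLUT6) and Slc2a8 (GLUT8) are found largely on membranes inside the cell.

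RefSeq promoter entries were matched for 6 of the 8 genes; those of Slc2a3 and Slc2a4 were not analysed here. The 250 bases before the annotated start are printed for 5 genes whose tissue patterns differ: 2 genes that were high in liver, 2 that were high in brain, and 1 whose signal was even across tissues. They run 5′ to 3′ on the gene's strand, in the GRCm38.p6 build. Capitals mark a pair of promoter motifs searched on both strands. One is the CCAAT box, which reads ATTGG where it lies on the opposite strand. The other is the GC box, spelt GGGCGG, or its reverse complement.
Slc2a2 chr3:28697653-28697902 (+ strand): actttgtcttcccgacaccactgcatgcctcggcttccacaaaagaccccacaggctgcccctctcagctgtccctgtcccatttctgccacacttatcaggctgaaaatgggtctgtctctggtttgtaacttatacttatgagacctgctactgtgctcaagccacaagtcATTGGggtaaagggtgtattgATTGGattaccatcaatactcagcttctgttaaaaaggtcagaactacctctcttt
Slc2a9 chr5:38483386-38483635 (- strand): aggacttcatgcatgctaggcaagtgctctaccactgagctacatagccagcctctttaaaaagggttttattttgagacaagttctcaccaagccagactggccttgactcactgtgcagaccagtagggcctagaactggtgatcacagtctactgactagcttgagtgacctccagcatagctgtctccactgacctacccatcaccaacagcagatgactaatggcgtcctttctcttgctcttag
Slc2a6 chr2:27027999-27028248 (- strand): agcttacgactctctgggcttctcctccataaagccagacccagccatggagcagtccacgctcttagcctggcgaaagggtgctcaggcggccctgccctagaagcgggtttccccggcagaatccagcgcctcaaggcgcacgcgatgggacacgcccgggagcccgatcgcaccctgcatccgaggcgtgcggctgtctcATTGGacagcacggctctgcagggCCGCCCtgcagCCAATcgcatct
Slc2a1 chr4:119108495-119108744 (+ strand): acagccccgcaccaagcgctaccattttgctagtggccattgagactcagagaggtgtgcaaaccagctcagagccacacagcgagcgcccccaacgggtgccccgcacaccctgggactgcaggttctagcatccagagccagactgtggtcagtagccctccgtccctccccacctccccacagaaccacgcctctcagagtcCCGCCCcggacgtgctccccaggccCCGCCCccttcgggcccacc
Slc2a8 chr2:32982084-32982333 (- strand): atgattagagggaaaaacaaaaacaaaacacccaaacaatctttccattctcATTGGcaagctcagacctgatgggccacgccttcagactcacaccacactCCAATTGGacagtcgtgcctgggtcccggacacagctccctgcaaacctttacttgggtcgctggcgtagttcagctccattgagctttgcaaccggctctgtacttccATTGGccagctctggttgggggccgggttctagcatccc
The CCAAT letters were present on at least 1 strand in 33.8% of the 32851 mouse promoters of this length, and the GC box in 32.7%. Slc2a2 held 2 CCAAT matches and no GC box, whereas Slc2a1 held 2 GC boxes and no CCAAT. Slc2a6 held 2 CCAAT matches and 1 GC box, Slc2a8 held 4 CCAAT matches, of which 2 overlap on opposite strands, and Slc2a9 held neither. Slc2a5, whose promoter is not printed, held 3 GC boxes and no CCAAT. No set of letters was thus common to Slc2a2, Slc2a5 and Slc2a9, the genes with their highest mean in liver. Slc2a1 and Slc2a6 had the GC box in common, which Slc2a5 also held. A relation of these letters to tissue was not tested.

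RNA was measured on 1-colour chemiluminescent arrays, and a probe counted as detected on an array where its deposited signal-to-noise value reached 3. Between 13115 and 18236 probes (39.7% to 55.3%) were detected per array. Markers of the labelled tissues were detected as follows on all 3 arrays of each strain: 5 of 6 neuron markers in brain, 6 of 6 hepatocyte markers in liver, 4 of 4 adipocyte markers in gonadal fat and 6 of 6 muscle fibre markers in gastrocnemius, while Snap25, the remaining neuron marker, was detected on no brain array. The gonadal fat arrays also held RNA of 7 epididymis markers, with mean log2 signals of 10.24, 18.45 and 14.81 in congenic fat and of 18.29, 17.10 and 18.42 in B6 fat. Congenic fat replicate 1 stood apart, with 4 of these 7 markers detected and a mean correlation of 0.897 with the other fat arrays, against 0.925 to 0.939 for the other 5. B6 fat replicate 1, which the design text lists among the livers, averaged log2 16.50 for the adipocyte markers and 8.51 for the hepatocyte markers, and no transporter call changed when it was left out. In these bulk tissues, fewer cells of a type and less RNA per cell cannot be told apart. Levels below are log2 normalized signals on a scale common to the 24 arrays unless another scale is named, and differences between tissues come from a limma fit over 24120 probes with Benjamini-Hochberg adjustment, called at an adjusted p under 0.05.

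Slc2a2 was a liver gene in these data. Its log2 signals were 16.34, 15.58 and 14.96 in congenic liver and 15.33, 16.22 and 16.16 in B6 liver, with deposited signals of 25344 to 62952 and signal-to-noise ratios of 43.0 to 72.8. The 2 strains overlapped, and all 6 liver arrays lay well above every array of another tissue. None of the 18 arrays of brain, gonadal fat and gastrocnemius detected it; their log2 signals lay between 7.64 and 9.95. Since those tissues give only a bound, its signal was at least 151-fold lower in brain than in liver (log2 difference −7.23 ± 0.37 SE, limma adjusted p = 1.2e-14), at least 100-fold lower in gastrocnemius than in liver and at least 188-fold lower in gonadal fat than in liver. Each bound, here and below, is the brighter mean over the mean, per array, of the probe's own signal or the dimmest detected signal, whichever was higher. It is a bound on the ratio of the measured means and leaves out their sampling error. For brain minus liver the 95% confidence interval of the log2 difference ran from −7.99 to −6.47. No fold is given between tissues that both lacked detection.

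Slc2a4 ran in the order gastrocnemius, gonadal fat, then brain and liver. Its log2 signals in gastrocnemius were 16.16, 15.94 and 16.38 in congenic mice and 16.04, 15.69 and 16.14 in B6 mice, with signal-to-noise ratios of 88.2 to 131.7. In gonadal fat they were 12.97, 11.18 and 12.73 in congenic mice and 11.76, 12.05 and 12.11 in B6 mice. In each tissue the strains overlapped, and every gastrocnemius array exceeded every fat array. Gastrocnemius exceeded gonadal fat 15.2-fold (log2 difference 3.93 ± 0.30 SE, limma adjusted p = 7.8e-11), and both tissues detected the probe on all 6 arrays. Brain and liver detected it on 1 of 6 arrays each, so that their mean log2 signals of 7.89 and 7.55 lie largely at background and the sizes of differences against them are uncertain. On these means gonadal fat exceeded brain 19.0-fold (4.25 ± 0.30 SE, limma adjusted p = 1.0e-11), and no order is given between brain and liver (0.33 ± 0.30 SE, not called, negative under median and 75th-percentile scaling). The adipocyte markers in muscle averaged log2 11.78, 13.58 and 11.94 on the congenic gastrocnemius arrays and 10.56, 10.49 and 11.33 on the B6 ones. The muscle fibre markers in gonadal fat averaged 11.25, 11.01 and 11.66 on the congenic arrays and 13.20, 11.56 and 9.53 on the B6 ones. On the B6 gastrocnemius arrays they averaged 20.38 to 20.82. The part of fat RNA in the muscle values, and of muscle RNA in the fat values, was not tested.

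**Figure D1:**
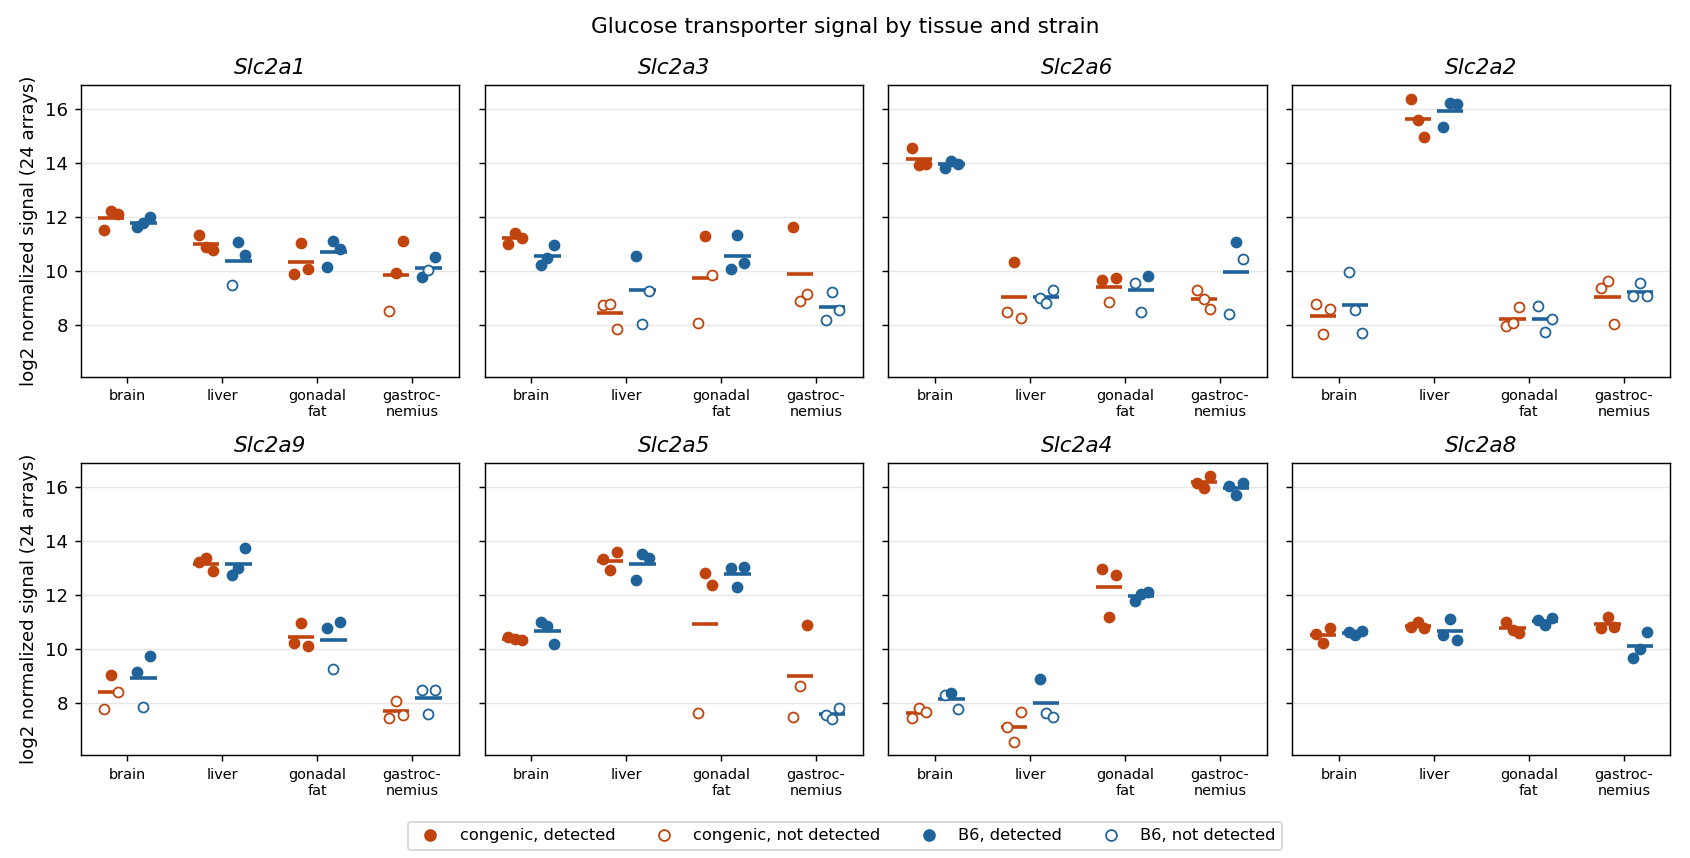
Log2 normalized signal on the 24-array scale (vertical axis) of the 8 transporters on each array, by tissue, with congenic arrays left of B6 arrays. Filled points were detected, open points were not, and bars are group means of 3 arrays. Slc2a2 is filled only in liver, Slc2a4 is highest in gastrocnemius, Slc2a6 is highest in brain, and Slc2a8 is filled on all 24 arrays.

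Slc2a6 was a brain gene in these data. In brain its log2 signals were 14.56, 13.92 and 13.95 in congenic mice and 13.79, 14.05 and 13.94 in B6 mice, with signal-to-noise ratios of 22.2 to 65.1. The other 18 arrays lay between 8.25 and 11.06, and no brain array overlapped them. Outside the brain the probe was detected on 3 of 6 fat arrays, 1 of 6 liver arrays and 1 of 6 gastrocnemius arrays, so that the folds against liver and gastrocnemius rest largely on values at background and their sizes are uncertain. Brain exceeded gastrocnemius 24.1-fold (log2 difference 4.59 ± 0.40 SE, limma adjusted p = 3.7e-10), gonadal fat 25.9-fold (4.69 ± 0.40 SE) and liver 32.5-fold (5.02 ± 0.40 SE). The differences among the other 3 tissues (0.10 to 0.43) were not called. The single liver array was congenic replicate 2, at log2 10.32 with a signal-to-noise ratio of 4.7. On that array the pancreas markers averaged log2 16.58, against 8.71 and 11.53 on the other congenic livers and 9.36 to 10.36 on B6 livers. The single gastrocnemius array was B6 replicate 2, at log2 11.06 with a ratio of 5.1, and there the macrophage markers averaged 14.27, against 12.07 to 12.77 on the other 5. The next highest muscle value, 10.43 with a ratio of 2.8, was that of B6 replicate 3, which had the lowest macrophage mean (12.07). On the fat arrays these markers averaged 13.76 to 15.09 and Slc2a6 lay between 8.45 and 9.82. The part of either cell type in these values was not tested.

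Slc2a1 was also highest in brain, by a smaller margin, and Slc2a3 was higher in brain than in liver and gastrocnemius but was not called against gonadal fat. Slc2a1 had log2 signals of 11.52, 12.20 and 12.09 in congenic brain and of 11.61, 11.75 and 11.98 in B6 brain. These exceed every array of the other tissues, whose highest value was 11.32 in congenic liver replicate 1. Brain exceeded liver 2.27-fold (log2 difference 1.18 ± 0.35 SE, limma adjusted p = 0.0061), gonadal fat 2.56-fold (1.36 ± 0.35 SE, adjusted p = 0.0023) and gastrocnemius 3.71-fold (1.89 ± 0.35 SE, adjusted p = 6.7e-05). The difference from liver was not called with congenic arrays alone (0.95). Below brain, the mean log2 signals were 10.68 (liver), 10.50 (gonadal fat) and 9.97 (gastrocnemius), and none of the steps between them was called. The step between liver and gonadal fat was 0.18 ± 0.35 SE and turned sign under median scaling. Without congenic gastrocnemius replicate 3, which had the highest muscle value (11.09), Slc2a1 in gastrocnemius was 1.03 lower than in liver (adjusted p = 0.012) and 0.85 lower than in gonadal fat (adjusted p = 0.038).

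Slc2a3 had log2 signals of 10.97, 11.40 and 11.22 in congenic brain and of 10.20, 10.48 and 10.95 in B6 brain, detected on all 6 arrays. In gonadal fat they were 8.07, 11.30 and 9.82 in congenic mice and 10.08, 11.32 and 10.26 in B6 mice, so that the fat arrays overlapped the brain arrays and brain exceeded fat by only 0.73 ± 0.51 SE (limma adjusted p = 0.25). With B6 arrays alone that difference was −0.013, and its sign also turned with series matrix values. In liver 1 of 6 arrays detected it, B6 replicate 1 at 10.56. In gastrocnemius 1 of 6 did, congenic replicate 1 at 11.62 with a signal-to-noise ratio of 5.8, which was the highest value of this probe on any array. Brain exceeded liver 4.03-fold (2.01 ± 0.51 SE, limma adjusted p = 0.0016) and gastrocnemius 3.04-fold (1.61 ± 0.51 SE, limma adjusted p = 0.010). The call against liver was lost with B6 arrays alone (1.27) and that against gastrocnemius with congenic arrays alone (1.32). Gonadal fat exceeded liver by 1.28 ± 0.51 SE with a limma adjusted p of 0.044, a call at the edge of the threshold. It was lost when any of 12 of the 24 arrays was left out (among them congenic fat replicate 2, giving 0.89, adjusted p = 0.16), and with the title number as a replicate block (1.27, adjusted p = 0.059). Without congenic gastrocnemius replicate 1, this gene was lower in gastrocnemius than in gonadal fat by 1.32 (adjusted p = 0.030), and without congenic fat replicate 1 by 1.30 (adjusted p = 0.033).

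Slc2a9 ran in the order liver, gonadal fat, then brain and gastrocnemius. In liver its log2 signals were 13.23, 13.35 and 12.89 in congenic mice and 12.73, 13.01 and 13.74 in B6 mice. In gonadal fat they were 10.23, 10.97 and 10.10 in congenic mice and 10.77, 9.26 and 11.01 in B6 mice. The strains overlapped in both tissues, and the lowest liver array lay above the highest fat array. Liver exceeded gonadal fat 6.82-fold (log2 difference 2.77 ± 0.36 SE, limma adjusted p = 7.6e-07), and gonadal fat exceeded brain 3.33-fold (1.73 ± 0.36 SE, limma adjusted p = 0.00026). Brain detected the probe on 3 of 6 arrays, so the size of the difference against brain is uncertain. Gastrocnemius detected it on no array, and it was at least 37.4-fold lower there than in liver. With no detected value in gastrocnemius, no order is given between brain and gastrocnemius; the fit did not call them apart (limma adjusted p = 0.10, and 0.024 without B6 brain replicate 2).

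Slc2a5 had its highest mean in liver, though it was not called above gonadal fat. Its liver log2 signals were of 13.33, 12.91 and 13.58 in congenic mice and 12.54, 13.52 and 13.35 in B6 mice. In gonadal fat 5 arrays lay close to liver, at 12.80 and 12.36 in congenic mice and at 12.99, 12.28 and 13.05 in B6 mice, but congenic fat replicate 1 read 7.61 with a signal-to-noise ratio of 2.3. In brain the probe was detected on all 6 arrays, between 10.19 and 11.00. In gastrocnemius it was detected on congenic replicate 3 alone, at 10.87 with a ratio of 9.3, and the other 5 muscle arrays lay between 7.39 and 8.62. Brain was 6.39-fold lower than liver (log2 difference −2.68 ± 0.61 SE, limma adjusted p = 0.00050) and exceeded gastrocnemius 4.71-fold (2.24 ± 0.61 SE, adjusted p = 0.0030). Gastrocnemius was 11.8-fold lower than gonadal fat (−3.56 ± 0.61 SE, adjusted p = 2.9e-05). With congenic arrays alone, brain minus gastrocnemius (1.39, limma adjusted p = 0.32) and gastrocnemius minus gonadal fat (−1.94, limma adjusted p = 0.18) were not called. With all arrays, neither liver over gonadal fat (1.35 ± 0.61 SE, adjusted p = 0.073) nor gonadal fat over brain (1.32 ± 0.61 SE, adjusted p = 0.073) was called. Without congenic fat replicate 1, brain lay 2.15 below gonadal fat (log2 difference −2.15, limma adjusted p = 6.0e-05), and gonadal fat minus liver was −0.53 (limma adjusted p = 0.30). Gonadal fat minus liver was called, on the other hand, without congenic fat replicate 2 (−1.83, limma adjusted p = 0.013), without congenic fat replicate 3 (−1.71, limma adjusted p = 0.028) or without congenic gastrocnemius replicate 3 (limma adjusted p = 0.0497), and with 75th-percentile scaling.

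Congenic fat replicate 1 had the lowest Slc2a5 and Slc2a3 signals of the 6 fat arrays and also the lowest epididymis markers, with a mean log2 of 10.24 against 14.81 to 18.45 on the other 5. Its haploid germ cell markers averaged 8.36, with 3 of 7 detected, against 11.22 to 14.06 on the other 5. Its adipocyte markers were the highest of the 6, at 17.10 against 15.70 to 16.50, and so was its Slc2a4 signal (12.97). Its macrophage markers (15.09 against 13.76 to 14.89) and endothelium markers (14.21 against 12.57 to 14.03) were also the highest of the 6. Its Slc2a8 (11.00) and Slc2a9 (10.23) lay within the range of the other 5 arrays, and its Slc2a1 (9.88) lay just below theirs (10.07 to 11.10). The part of epididymal or germ cell RNA in the fat values of Slc2a5 and Slc2a3 was not tested.

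**Figure D2:**
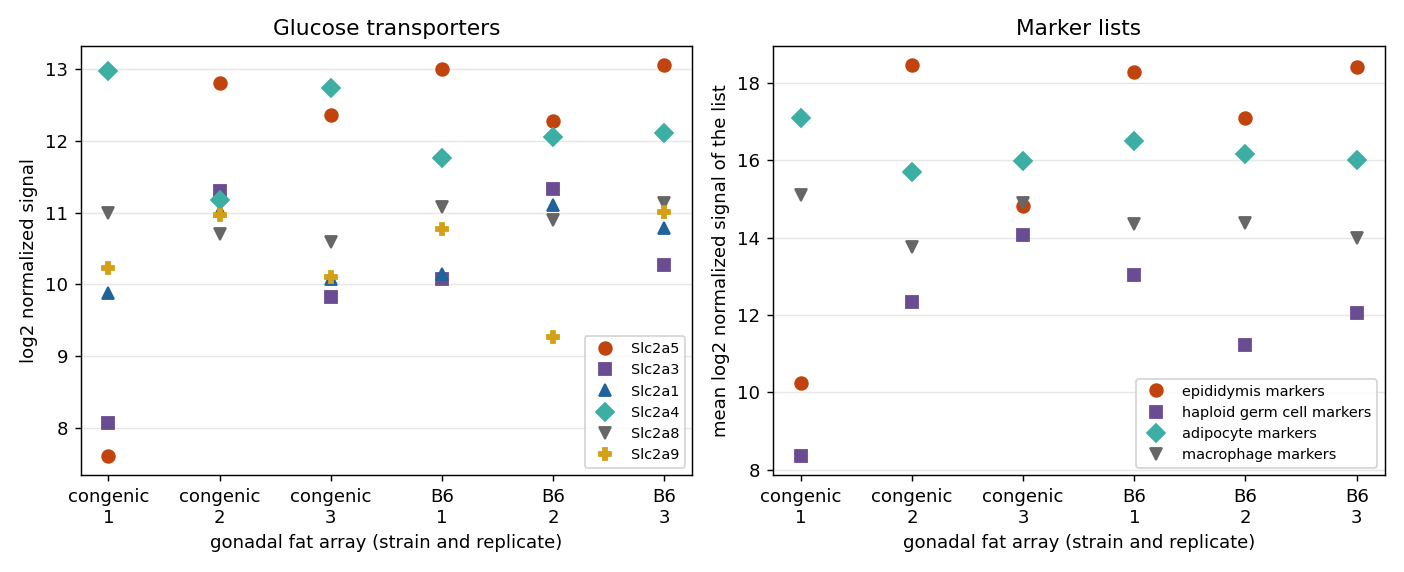
Left: log2 normalized signal (vertical axis, 24-array scale) of 6 transporters on the 6 gonadal fat arrays, congenic arrays left of B6 arrays. Right: mean log2 normalized signal of 4 marker lists on the same arrays. Slc2a5 reads 7.61 on congenic replicate 1 and 12.28 to 13.05 on the other 5, and the epididymis marker mean reads 10.24 there.

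Slc2a8 was the only one of the 8 genes detected on all 24 arrays, with signal-to-noise ratios of 3.1 to 34.6. Its log2 signals ran from 9.65 in B6 gastrocnemius replicate 1 to 11.19 in congenic gastrocnemius replicate 2. Mean log2 signals were 10.56 for brain, 10.75 for liver, 10.90 for gonadal fat and 10.51 for gastrocnemius. No pair of tissues was called; the widest gap, gastrocnemius below gonadal fat by 0.39, had a 95% confidence interval for gastrocnemius minus gonadal fat of −0.85 to 0.07. Under median scaling that gap was called, at −0.63 (adjusted p = 0.021), and the sign of brain against liver and of brain against gastrocnemius depended on the scaling.

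Over the 6 pairs of tissues, members detected in either tissue were counted beside the share of all 24120 tested probes called. That share also takes in probes that neither tissue of a pair detected, so the sets are not filtered alike. Brain minus liver had 6 of 8 members called, 3 higher (Slc2a1, Slc2a3, Slc2a6) and 3 lower (Slc2a2, Slc2a5, Slc2a9), where 57.2% of all probes were called. Brain minus gonadal fat had 4 of 7 (2 higher, 2 lower) against 51.2% of all probes (24.3% higher, 26.9% lower), and brain minus gastrocnemius had 5 of 7 (4 higher, 1 lower) against 52.8%. Gastrocnemius minus liver had 4 of 8 (1 higher, 3 lower) against 46%, gastrocnemius minus gonadal fat 3 of 7 (1 higher, 2 lower) against 46% (19.9% higher, 26.1% lower), and gonadal fat minus liver 4 of 8 (2 higher, 2 lower) against 45.2%. With that difference in filtering, the counts of transporters that differed between tissues were near the shares of the array as a whole. Slc2a2 passed the fit between gastrocnemius and gonadal fat (adjusted p = 0.048) but was detected in neither and is not counted.

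**Figure D3:**
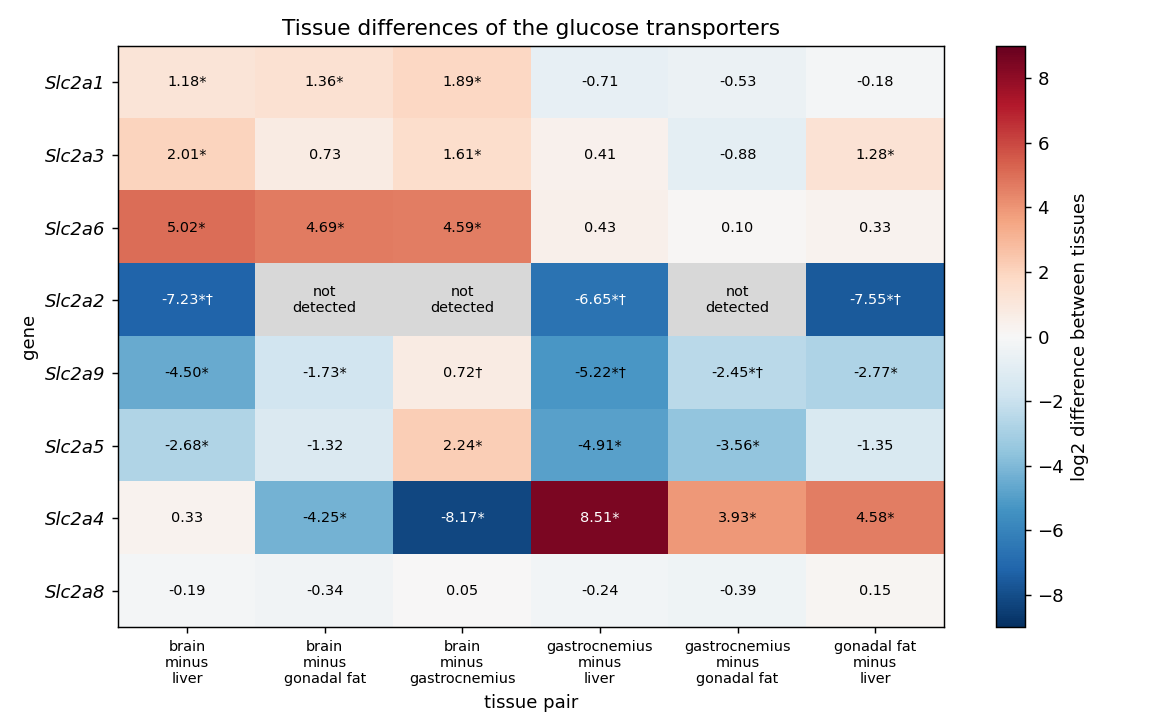
Log2 differences between tissues (colour and printed value) for the 8 transporters (rows) in 6 tissue pairs (columns), averaged over both strains. An asterisk marks a limma adjusted p under 0.05, a dagger marks a difference against a tissue that detected the probe on no array, which is only a bound, and grey marks pairs in which neither tissue detected it. Slc2a4 runs from −8.17 for brain minus gastrocnemius to 8.51 for gastrocnemius minus liver, each against a tissue with 1 of 6 arrays detected; unmarked values of Slc2a1, Slc2a4, Slc2a8 and Slc2a9 include signs that turned with the scaling.

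For each transporter the 3 named genes of highest Pearson correlation over the 24 arrays, among 11638 genes, are given as a description; the arrays share 4 tissues, so a gene high in the same tissue scores high. Slc2a2 ran closest to C8b, a complement component (r = 0.984), Ugt2b35 and Cyp3a44, and Slc2a4 to Fsd2 (r = 0.987), Ucp3, an uncoupling protein of muscle mitochondria (r = 0.985), and Serpinb6a (r = 0.980). Slc2a6 ran closest to Chga, a protein of secretory granules (r = 0.968), Zfp365 and Ly6h, and Slc2a9 to Sardh, sarcosine dehydrogenase (r = 0.970), Reep6 and Asl, a urea cycle enzyme (r = 0.954). Slc2a5 followed Ocln, a tight junction protein (r = 0.928), Fads2, a fatty acid desaturase (r = 0.924), and Lsr (r = 0.911). The likeness was lower for Slc2a1, with Sorcs3 (r = 0.855), Tmem91 and Olfm3, for Slc2a3, with Kcnh3, a potassium channel (r = 0.847), Fndc10 and Sult2b1, and for Slc2a8, with Ap5m1 (r = 0.781), Trmt5 and Btbd7 (both r = 0.700).

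Of the other family members, Slc2a10 and Slc2a12 had a probe. Slc2a12 (GLUT12), which like GLUT4 has been found in muscle and fat, had log2 signals of 11.90, 11.24 and 11.60 in congenic gastrocnemius and 11.99, 11.70 and 11.82 in B6 gastrocnemius. No liver array detected it, so it was at least 13.2-fold higher in gastrocnemius than in liver (limma adjusted p = 3.1e-09), and it was lower in brain than in gastrocnemius by 1.45 (log2 difference −1.45, adjusted p = 0.0015). Gonadal fat detected it on 3 of 6 arrays. Gastrocnemius exceeded gonadal fat by 2.94 (limma adjusted p = 3.1e-07), and brain exceeded gonadal fat by 1.49 (limma adjusted p = 0.0012), both on the log2 scale. Slc2a10 (GLUT10) was highest in gonadal fat, at 10.39, 12.02 and 10.86 in congenic mice and 9.71, 12.94 and 10.75 in B6 mice, and, with 0 of 6 liver arrays detecting it, was at least 7.05-fold higher in gonadal fat than in liver (limma adjusted p = 5.1e-05).

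Genes that act on transported sugar also differed by tissue. The list counts, here and below, take in only genes detected in either tissue of a pair, a filter that the shares of all probes lack. Of 8 genes of glucose phosphorylation and release, gastrocnemius minus liver had 3 higher and 3 lower at a median log2 difference of −0.19, where 24.4% of all probes were higher and 21.5% lower with a median of 0.04. Hk2, the hexokinase of insulin-responsive tissues, was at least 236-fold higher in gastrocnemius than in liver, where no array detected it (limma adjusted p = 1.2e-17). G6pc, glucose-6-phosphatase, was not detected in gastrocnemius, at least 1448-fold below its level in liver (limma adjusted p = 7.3e-18). Hk1, the widely expressed hexokinase, was at least 84.3-fold higher in brain than in liver, which also lacked detection of it. Of 5 sodium-coupled glucose transporters with a probe, 2 could be compared between brain and liver. Slc5a2 was lower in brain (log2 difference −1.03 ± 0.42 SE, limma adjusted p = 0.040), detected on 0 of 6 brain and 2 of 6 liver arrays. Its bound of 2.04-fold does not include that standard error.

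Of 12 genes of GLUT4 vesicle traffic, gastrocnemius minus liver had 9 higher and 2 lower (median log2 difference 1.29), where 24.4% of all probes were higher and 21.5% lower. Gonadal fat minus liver also had 9 higher, with 1 lower (median 0.86, against 0.07 for all probes, of which 26.1% were higher and 19.1% lower). In gastrocnemius minus liver the largest log2 differences were those of Rhoq (3.62), a small GTPase of the insulin response, Trip10 (3.62), Tbc1d1 (3.25), a Rab GTPase-activating protein, and Sort1 (2.50), sortilin. In gonadal fat minus liver Sort1 had the largest (5.04), followed by Rhoq (2.58), Tbc1d1 (2.26) and Myo1c (2.04), a myosin. Liver detected Rhoq on 4, Tbc1d1 on 3 and Myo1c on 2 of 6 arrays, so the sizes of these differences lie partly against background. Brain minus gastrocnemius had 3 higher and 9 lower, where 26.8% of all probes were higher and 26% lower. Vamp2, which also serves synaptic vesicles, was among those higher in brain (4.19). Of 11 insulin signalling genes, gonadal fat minus liver had 7 higher and 1 lower, and the 1 that was lower was Grb14, an inhibitor of the insulin receptor (log2 difference −3.91, limma adjusted p = 3.6e-12). Gsk3b (1.69) and Akt2 (1.20), kinases of the pathway, were among the 7.

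Of 16 regulators of transporter genes, brain minus liver had 2 higher and 11 lower (median −1.42, against −0.03 for all probes, of which 30% were higher and 27.2% lower). Mef2c, a factor of the Slc2a4 promoter in muscle, was at least 112-fold higher in gastrocnemius than in liver, where no array detected it, and was higher in gastrocnemius than in gonadal fat by 4.93 on the log2 scale. Mef2c was also at least 114-fold higher in brain than in liver, whereas brain detected Slc2a4 on 1 of 6 arrays. Pparg was higher in gonadal fat than in liver by 4.41, and Mlxipl, a glucose-sensing factor, was lower in brain than in liver (log2 difference −5.15). Txnip, which promotes removal of GLUT1 from the cell surface, was lower in brain than in gonadal fat (−6.96) and than in gastrocnemius (−5.20). Both fructose genes with a probe, Khk and Tkfc, were lower in gonadal fat than in liver, by log2 differences of −3.75 and −3.98. Of 9 urate genes, brain minus liver had 2 higher and 5 lower, led by Uox, urate oxidase (−10.12, with 1 of 6 brain arrays detecting it), and Xdh, xanthine dehydrogenase (−4.04). Each single-gene difference named in this paragraph passed the limma test.

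The strain comparison asked whether transporter RNA differed between the lean congenic mice and B6 within a tissue. No transporter was called in any tissue: 6 members were tested for brain, 5 for liver, 7 for gonadal fat and 3 for gastrocnemius, each detected on 3 or more of the tissue's arrays, on a scale normalized among the 6 arrays of the tissue, and 0 of these 21 tests passed. The limma test called 0% of all probes in each tissue as well; at an unadjusted p under 0.05 there were 1632 of 16908 probes for brain, 456 of 13956 for liver, 609 of 17624 for gonadal fat and 373 of 13252 for gastrocnemius, and 1 of the 21 transporter tests. The congenic mean was the higher one in 11 of the 21. Groups that did not overlap were found for 1 of 6 members in brain (15.4% of all probes) and 1 of 3 in gastrocnemius (7.76% of all probes). None were found for the 5 in liver, where 6.96% of all probes did not overlap, or the 7 in gonadal fat (8.1% of all probes). With 3 arrays a group, confidence intervals were wide, and a missed threshold does not show equal levels.

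Slc2a3 in brain was that 1 test. On the brain scale its log2 signals were 11.95, 12.38 and 12.21 in congenic brain and 11.12, 11.43 and 11.93 in B6 brain. All congenic arrays lay above all B6 arrays, the nearest pair by a small margin, and 15.4% of all probes in brain likewise had groups that did not overlap. The congenic minus B6 difference was 0.68 ± 0.26 SE (limma adjusted p = 0.48), and it ranged from 0.50 to 0.90 when single arrays were left out. The congenic brain array outside the named triplicate had a deposited Slc2a3 signal of 5004 with a ratio of 13.6, within 3541 to 5382 on the 3 congenic arrays used and above 2266 to 4584 on the B6 arrays, before any normalization. Its title shares the animal number of congenic replicate 4, so it is not a further animal.

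Slc2a8 in gastrocnemius was the other gene whose groups did not overlap, among 7.76% of all probes there. On the gastrocnemius scale its log2 signals were 10.33, 10.74 and 10.35 in congenic mice and 9.29, 9.57 and 10.19 in B6 mice. The difference was 0.79 ± 0.38 SE (95% confidence interval −0.06 to 1.65, limma adjusted p = 1.00). Slc2a4 in the same muscle averaged 16.13 ± 0.24 in congenic mice and 15.90 ± 0.26 in B6 mice (SD, n = 3 each), a difference of 0.22 with an interval of −0.22 to 0.67. In gonadal fat Slc2a4 averaged 12.46 ± 0.90 in congenic mice and 12.18 ± 0.17 in B6 mice (SD, n = 3 each; difference 0.29, interval −0.76 to 1.34).

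In liver, Slc2a2 averaged 15.20 ± 0.77 in congenic mice and 15.51 ± 0.55 in B6 mice on the liver scale (SD, n = 3 each), and its difference of −0.31 had an interval of −1.19 to 0.57. Slc2a9 in liver averaged 12.49 ± 0.26 in congenic mice and 12.49 ± 0.56 in B6 mice (SD, n = 3 each), with an interval of −0.70 to 0.70. The largest strain difference by size was Slc2a5 in gonadal fat, at −1.92 ± 1.31 SE with an interval of −4.98 to 1.14. Its fat-scale signals were 7.50, 12.93 and 12.52 in congenic mice and 13.11, 12.45 and 13.16 in B6 mice, and without congenic replicate 1 the difference was −0.18 ± 0.34 SE. Slc2a3 in gonadal fat likewise differed by −0.95 ± 0.86 SE with all arrays and by −0.01 without that one. Neither the strain difference averaged over tissues, between −0.23 and 0.18 for the 8 genes, nor the strain by tissue interaction was called for any of them (limma adjusted p from 0.90 to 0.99 and from 0.97 to 1.00). Over all 24120 probes these fits called 0%, with 1424 and 1261 probes at an unadjusted p under 0.05. Both fits took in tissues where a probe was largely at background, so for such genes they do not test a strain effect shared by the expressing tissues. Slc2a2, for example, was detected in liver alone. For Slc2a4 the average was −0.22, yet on the 24-array scale its congenic mean was the higher one in gonadal fat and gastrocnemius. It was the lower one in brain and liver, which each detected the probe on 1 of 6 arrays.

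**Figure D4:**
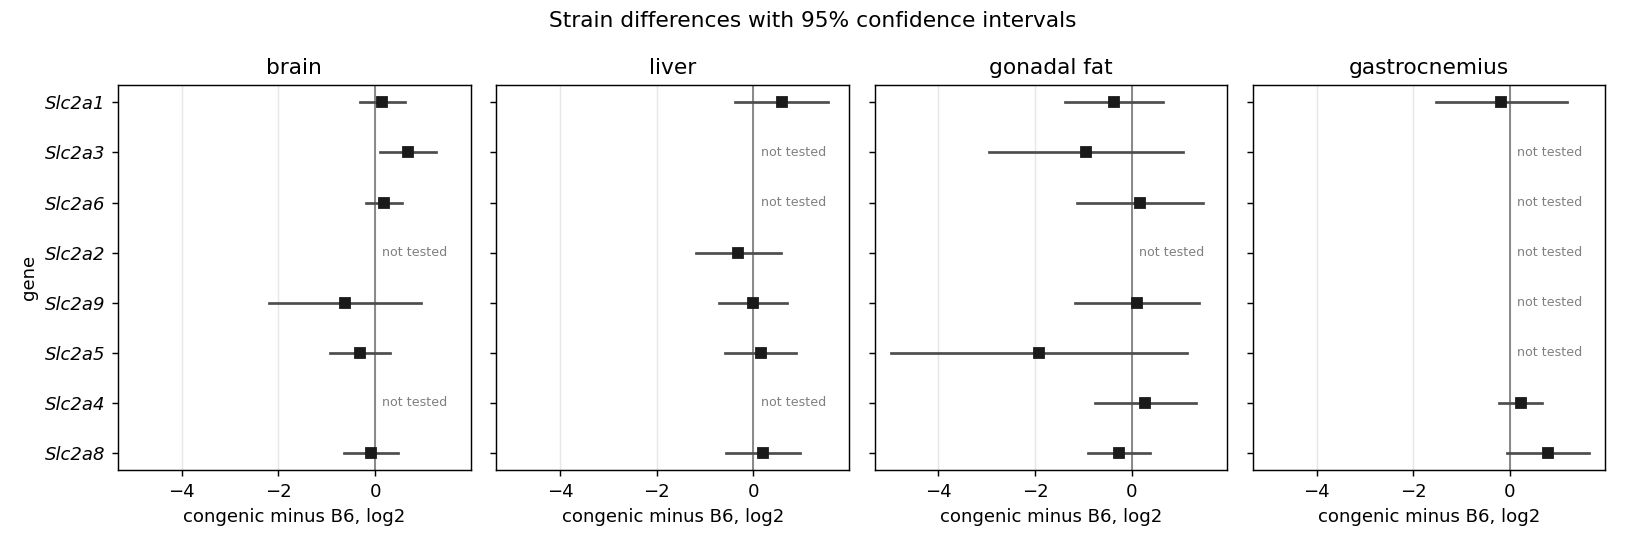
Congenic minus B6 log2 differences (squares) with 95% confidence intervals (lines) for the transporters tested in each tissue, each normalized among the 6 arrays of that tissue. The interval of Slc2a3 in brain lies above 0 before adjustment for the number of probes, all others include 0, and the interval of Slc2a5 in gonadal fat is the widest.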

How the data were processed

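Per the submitters' labels, total RNA (TRIzol) was amplified to digoxigenin-labelled cRNA and read on Applied Biosystems chemiluminescent arrays. The deposited array files hold an intensity per probe (Signal), a signal-to-noise score and a flag; the deposited series matrix holds log2 values, which equal log2 Signal plus a constant per array and are blank below a signal-to-noise ratio of 3. The scanner's own processing and the probes' genome build were not stated in the labels or file headers.

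Signal was corrected by normexp (offset 50), log2-transformed and quantile-normalized. For strain differences this was done among the 6 arrays of a tissue, for probes detected (signal-to-noise 3 or more) on 3 or more of the 6. For tissue differences it was done among the 24 arrays, for probes detected on 3 or more of the 24. The tests were limma 3.58.1 in R 4.3.3 (lmFit, eBayes with an intensity trend), with p-values adjusted by Benjamini and Hochberg over all tested probes, and the fits were tested on simulated data. The number of arrays limits the precision. Of 32996 probes, 14401 had 1 gene symbol in GEO's platform annotation, 247 had several and 18348 had none.

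Congenic brain replicate 2 is outside the triplicate that the design names and entered only alternatives. B6 fat replicate 1 is listed among the livers in the design text and was used as fat by its own title. Title numbers were taken to name the animal: outside brain, 7 of 10 numbers occur in more than 1 tissue, and the estimated correlation of arrays sharing a number was −0.07. Members, gene lists and tests were chosen with earlier results of these data known. All 8 transporters are described; of each of 8 pathway lists, counts and up to 4 of the largest changes were taken. Alternatives were other scalings, no background correction, the series matrix, other filters, no intensity trend, single strains, a replicate block and leaving out each array.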

Additional observations from a re-analysis of the deposited data

How the results depend on the processing

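Of the 26 tissue differences called for a transporter, none reversed under any alternative or left-out array. With single arrays left out, the only call lost was Slc2a3 in gonadal fat minus liver. That call was also lost with 75th-percentile scaling (1.07), with no filter (adjusted p = 0.052), with either strain alone (1.28 in B6, 1.29 in congenic mice) and with the title number as a replicate block (1.27, adjusted p = 0.059). The block changed no other call among the transporters. With congenic arrays only, Slc2a1 in brain minus liver (0.95), Slc2a3 (1.32) and Slc2a5 (1.39) in brain minus gastrocnemius and Slc2a5 in gastrocnemius minus gonadal fat (−1.94) were no longer called; with B6 arrays only, Slc2a3 in brain minus liver (1.27) was not. The counts of called transporters were 3 with congenic arrays only in brain minus gastrocnemius against 5, and in gastrocnemius minus gonadal fat 5 with B6 arrays only and 2 with congenic arrays only, against 3. With series matrix values, where undetected values are blank and fewer members can be tested, they were 3 in brain minus liver, 1 in brain minus gastrocnemius, 0 in gastrocnemius minus liver (2 members, Slc2a1 and Slc2a8, could be tested) and 1 in gonadal fat minus liver. Of the 3 most similar genes, by Spearman correlation 0 were kept for Slc2a2, Slc2a4, Slc2a6 and Slc2a9 and 1 for Slc2a3, Slc2a5 and Slc2a8; over the 8 group means 0 were kept for Slc2a1, Slc2a2, Slc2a3, Slc2a6 and Slc2a8. The causes were not tested.

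The other reversals concerned differences that were not called. In the strain comparison these were Slc2a1 in brain with congenic replicate 2 in place of 4 (−0.00135), Slc2a9 in liver with median scaling (0.10), and, with series matrix values, Slc2a9 in liver (0.17), Slc2a3 (0.71), Slc2a6 (−0.20) and Slc2a9 (−0.50) in gonadal fat and Slc2a1 in gastrocnemius (0.42). Between tissues, median scaling turned Slc2a4 (−0.30) and Slc2a8 (0.11) in brain minus liver and Slc2a1 in gonadal fat minus liver (0.051), and 75th-percentile scaling turned Slc2a4 in brain minus liver (−0.63) and Slc2a8 (−0.011) and Slc2a9 (−0.017) in brain minus gastrocnemius. Series matrix values turned Slc2a8 in brain minus liver (0.035) and Slc2a3 in brain minus gonadal fat (−0.021). B6 arrays alone turned Slc2a3 in brain minus gonadal fat (−0.013) and gastrocnemius minus liver (−0.62) and Slc2a1 in gonadal fat minus liver (0.31). Congenic arrays alone turned Slc2a8 in brain minus gastrocnemius (−0.41), gastrocnemius minus liver (0.069), gastrocnemius minus gonadal fat (0.17) and gonadal fat minus liver (−0.10), Slc2a6 in gastrocnemius minus liver (−0.077) and gastrocnemius minus gonadal fat (−0.48), and Slc2a3 in gastrocnemius minus gonadal fat (0.15).

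With single arrays left out, congenic minus B6 ranged from −0.22 to 0.070 for Slc2a8 in brain, in liver from −0.71 to 0.06 for Slc2a2, from −0.18 to 0.36 for Slc2a5 and from −0.23 to 0.31 for Slc2a9, in gonadal fat from −0.026 to 0.81 for Slc2a4, from −0.32 to 0.50 for Slc2a6 and from −0.47 to 0.46 for Slc2a9, and from −0.73 to 0.39 for Slc2a1 in gastrocnemius. Averaged over tissues it ranged from −0.12 to 0.21 for Slc2a1, from −0.17 to 0.26 for Slc2a3 and from −0.39 to 0.26 for Slc2a5. Between tissues, Slc2a8 ranged from −0.060 to 0.19 in brain minus gastrocnemius, Slc2a3 from −0.031 to 0.73 in gastrocnemius minus liver and Slc2a6 from −0.17 to 0.50 in gastrocnemius minus gonadal fat.

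The 75th-percentile scaling moved the median of all probes to −0.51 in brain minus liver, −0.18 in brain minus gonadal fat, −0.57 in brain minus gastrocnemius, 0.30 in gastrocnemius minus gonadal fat and −0.28 in gonadal fat minus liver, and median scaling to −0.18 and −0.21 in brain minus liver and brain minus gastrocnemius; with quantile normalization it lay between −0.09 and 0.07. The share of called probes that were higher was 52.5% in brain minus liver and 37.5% with 75th-percentile scaling, 50.7% and 34.7% in brain minus gastrocnemius, 43.3% and 60.2% in gastrocnemius minus gonadal fat, and 57.8% and 39.3% in gonadal fat minus liver. Counts over all probes that moved most were, for the strain difference, 2, 2 and 3 in brain (without B6 replicate 1, without congenic replicate 4, and with replicate 2 in place of 4), 275 in gonadal fat and 136 averaged over tissues without congenic fat replicate 2, each against 0. The interaction had 429 without that array and 3 to 6 without congenic fat replicate 3, congenic liver replicate 1 or congenic gastrocnemius replicate 3, against 0. With series matrix values the tissue counts were 8215 (main 13791), 8260 (12745), 6835 (11092) and 6956 (10899) in brain minus liver, brain minus gastrocnemius, gastrocnemius minus liver and gonadal fat minus liver, and with congenic arrays only 6662 (11086) in gastrocnemius minus gonadal fat and 6263 (10899) in gonadal fat minus liver. Signal near background limits Slc2a4 in brain and liver, Slc2a6 outside brain, Slc2a3 in liver and muscle, Slc2a9 in brain and muscle, and Slc2a5 in muscle. The sizes of differences against these tissues are therefore uncertain.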
